A study of Mus musculus with 18 samples.

Results

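Rbm3 and Cirbp encode the cold-inducible RNA-binding proteins, and their transcripts were followed in mouse thymocytes across age. They are 2 of the 15975 genes that the array names with a symbol, taken as the non-control probes whose gene name in the files is Rbm3 or Cirbp, which gave 1 probe for each. A further probe carries another name in the files but is tied to Rbm3 by the accession in its annotation, and it is described beside the first. The 2 genes were chosen by their log2 ratios at 6, 16 and 24 months and their channel levels, in which Rbm3 was lowest at 16 months, so their values by age are a description and carry no test. The thymocytes, which are T cells in development, came from C57BL/6 mice, and no treatment or genotype is named. The tissue had been dispersed and strained, washed free of fat cells and treated to lyse red cells. The 3 older groups were 6, 16 and 24 months of age, with RNA of 3 individual mice each, labelled with Cy3. Each of the 9 arrays also carried Cy5-labelled RNA from thymocytes of 1 month old C57BL/6 mice, which the study's design calls a pool and the sample labels number as 9 mice. That material was treated as 1 control, so its own spread between animals is left out of every comparison with 1 month. The dyes were never swapped, so an older age compared with 1 month is also Cy3 compared with Cy5, and the dye and the age cannot be told apart. In the comparisons among 6, 16 and 24 months the dyes stood the same way on all arrays.

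Rbm3 and Cirbp are small glycine-rich proteins with an RNA recognition motif, and both transcripts accumulate when mammalian cells are kept a few degrees below body temperature. Rbm3 has been tied to global protein synthesis and cell survival under cold and other mild stress, and Cirbp to the stability and polyadenylation of selected mRNAs, among them those of the circadian clock. Heat shock has the opposite effect on them in cultured cells. No body or housing temperature is given in the sources used here.

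The upstream sequence of Cirbp is shown because a cold-responsive element has been described in its promoter. It covers the 250 bases before the first of 2 Cirbp start sites in RefSeq, on the plus strand of chromosome 10 of GRCm38.p6 at chr10:80167589-80167838, and the capitals mark the letters TCCCCGCC of the mild cold-responsive element, which the transcription factor Sp1 has been reported to bind.
Cirbp: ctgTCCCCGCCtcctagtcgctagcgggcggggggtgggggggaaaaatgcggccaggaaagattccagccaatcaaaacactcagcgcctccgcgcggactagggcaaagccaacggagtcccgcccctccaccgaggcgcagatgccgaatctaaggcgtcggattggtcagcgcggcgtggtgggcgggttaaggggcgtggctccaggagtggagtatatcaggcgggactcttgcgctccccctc
The element begins 247 bases before the start. Counting either strand, the same letters occur in 1525 of 32851 RefSeq windows of this length, or 4.6%. The window also holds 3 matches to GGGCGG, the GC box (in 32.7% of windows), and 2 to CCAAT, the CCAAT box (in 33.8%), with no overlap between the motifs. The heat shock element core GAANNTTC (6.7% of windows) and the clock E-box CACGTG (6.0%) had 0 matches on either strand of it. The window before the second Cirbp start site holds 4 GC boxes and none of the other motifs searched. These are matches of letters only, and nothing in the arrays measured binding.

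The arrays gave usable signal throughout, with 79.6% to 94.2% of non-control features well above background in Cy3 and 90.5% to 95.4% in Cy5. Cy3 was dimmest on 24 month replicate 2, with a median of 61.2 intensity units over background, and brightest on 6 month replicate 1 with 175.1. All 14 thymocyte markers, among them Cd3e, Cd4, Cd8a and Rag1, were well above background in every channel. Of 37449 probes tested, 16.6% passed an adjusted p of 0.05 at 6 months against 1 month, 24.4% at 16 months and 21.5% at 24 months. Among 6, 16 and 24 months 0% passed in any pair of ages. The Rbm3 and Cirbp probes were well above background in all 18 channels, with 0 saturated spots and 0 outlier flags. The number of arrays limits the precision of all values below. In RNA from a cell suspension, fewer cells of a type and less RNA per cell cannot be told apart.

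Rbm3 was below 1 month at every older age and stood lowest at 16 months. Values are log2 ratios of the Cy3 mouse over the Cy5 1 month RNA on the same array, after normexp background correction and loess normalization, so that a value below 0 is lower in the older mouse. In the 6 month mice Rbm3 stood at -0.65, -0.92 and -0.48 in replicates 1, 2 and 3. The 16 month mice had -1.47, -1.64 and -1.20, and the 24 month mice -0.95, -0.41 and -0.46. All 9 ratios lay below 0, as did those of 14.4% of the probes measured on all arrays, and each 16 month mouse lay below every mouse of 6 and of 24 months.

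The mean Rbm3 ratio was -0.68 ± 0.22 at 6 months, -1.43 ± 0.22 at 16 months and -0.60 ± 0.30 at 24 months (SD, n = 3 each), with an SE of 0.12 in the limma fit. On the linear scale this was 62.4%, 37.0% and 65.8% of the 1 month signal. At 16 months only 1 of the 37449 tested probes had a lower mean ratio than this Rbm3 probe, while it was the 49th lowest at 6 months and the 160th lowest at 24 months. Rbm3 at 16 months was 0.75 below 6 months on the log2 scale (difference -0.75, SE 0.17), with no overlap between the mice, as for 7.09% of probes in this direction. The 24 month mice were above the 16 month mice by 0.83 (SE 0.17), a 1.78-fold difference, again with no overlap, as for 4.78% of probes in this direction. Between 24 and 6 months the difference was 0.08 (SE 0.17) and the mice overlapped. Of all tested probes, 30.6% had their lowest mean of the 3 ages at 16 months.

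**Figure D1:**
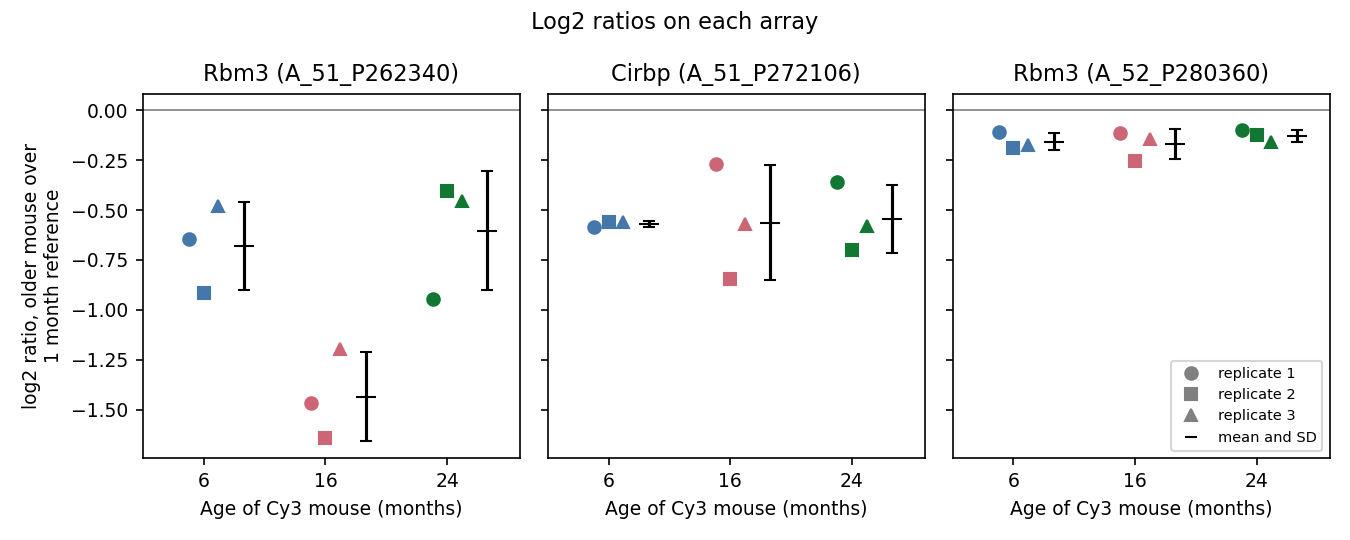
Log2 ratio of the older mouse over the 1 month RNA on each of the 9 arrays (vertical axis) against age in months, for the Rbm3 probe A_51_P262340, the Cirbp probe and the further Rbm3 probe A_52_P280360, with the mean and SD of 3 mice beside the points. The 3 mice of 16 months lie between -1.64 and -1.20 for the first Rbm3 probe, below all other mice, whereas the further Rbm3 probe stays between -0.25 and -0.10 at all ages.

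The normalized channel levels were built from the same loess values as the ratios, and channel levels were used in the choice. That they showed the same order of ages is therefore no separate finding. For Rbm3 the 9 Cy5 channels of 1 month ranged from 14.21 to 14.49 on the log2 intensity scale (mean 14.31, SD 0.09), and the Cy3 levels averaged 13.57 ± 0.19 at 6 months, 12.97 ± 0.24 at 16 months and 13.66 ± 0.31 at 24 months (SD, n = 3 each). On each array the Cy3 level of Rbm3 was under the Cy5 level, as the ratios below 0 already show. The same held for 14.4% of the probes measured on all arrays, and dye and age cannot be told apart in it. The Cy5 SD of 0.09 was smaller than the median of 0.11 over all probes. The probe is among the brightest on the array, with a higher mean intensity than 99.4% of tested probes. Its raw signal over local background ran from 2089 to 12331 intensity units in Cy3 and from 25673 to 60461 in Cy5, where the scale ends at 65517. The lowest raw Cy3 value, 2089, was that of 24 month replicate 2. Agilent's processed Cy3 signals of 16 and 24 months overlapped. They were 47885, 42711 and 63831 in the 16 month mice and 57872, 53827 and 98444 in the 24 month mice.

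**Figure D2:**
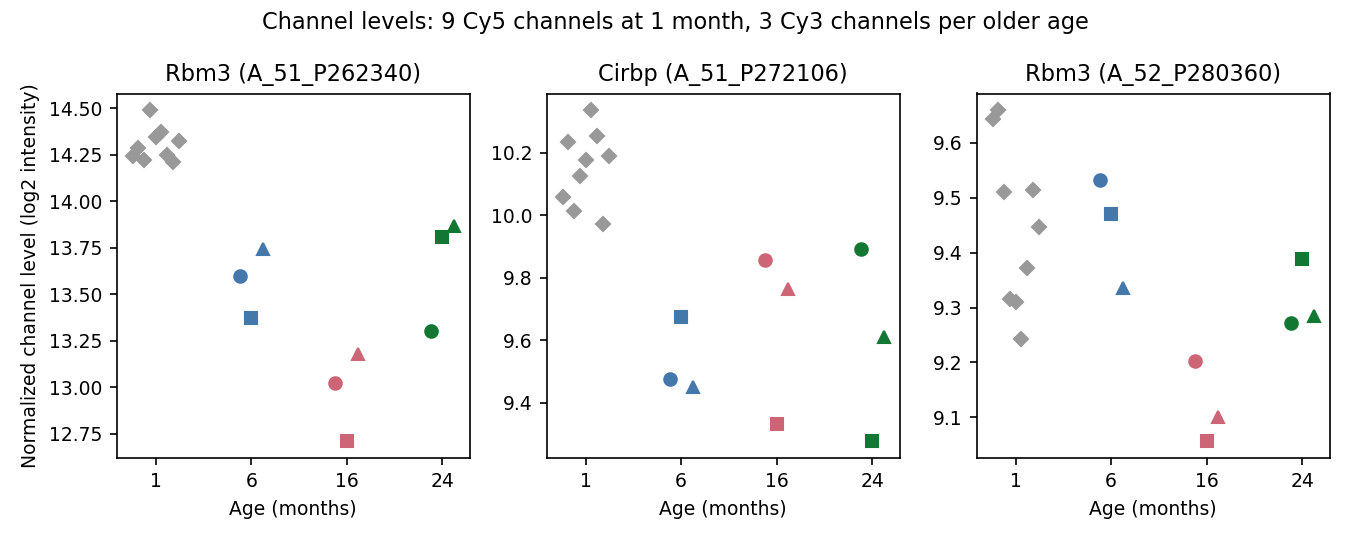
Normalized channel level (log2 intensity) by age in months for the same 3 probes, with 9 Cy5 channels at 1 month as grey diamonds and 3 Cy3 channels at each older age (circle, square and triangle for replicates 1, 2 and 3), each panel on its own scale. For the first Rbm3 probe the grey points span 14.21 to 14.49. Its Cy3 level was under the Cy5 level on each array, as for 14.4% of the probes measured on all arrays.

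The further Rbm3 probe did not show the same depth of difference. This probe (A_52_P280360) is annotated to the RefSeq transcript of Rbm3, whereas the first (A_51_P262340) is annotated to a Riken cDNA clone of the gene. Both read the same labelled RNA, and the sequences of the probes were not used here. At 6 months it stood at -0.11, -0.19 and -0.17 in replicates 1, 2 and 3. The mice of 16 months had -0.11, -0.25 and -0.14, and those of 24 months -0.10, -0.13 and -0.16. All 9 ratios were below 0, but the ages overlapped throughout. The means were -0.16 ± 0.04, -0.17 ± 0.07 and -0.13 ± 0.03 at 6, 16 and 24 months (SD, n = 3 each), or 89.6%, 88.9% and 91.4% of the 1 month signal. Its 16 month mean was -0.01 from that of 6 months and its 24 month mean 0.04 from that of 16 months (SE 0.05 for each difference). The 16 month ratio that set Rbm3 apart was that of the clone probe. In the single channels the Cy3 level of the further probe was 9.34 to 9.53 at 6 months, 9.06 to 9.20 at 16 months and 9.27 to 9.39 at 24 months, so it was lowest at 16 months. The Cy5 level of 1 month on the same arrays was lowest there too, at 9.51 to 9.66, 9.24 to 9.32 and 9.37 to 9.51 on the arrays of 6, 16 and 24 months. The share of all probes with such an order of levels was not counted. What sets the probes apart was not tested.

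Cirbp was also below 1 month on all 9 arrays, but at much the same ratio at each age. The 6 month mice were close together at -0.58, -0.56 and -0.56 in replicates 1, 2 and 3. The 16 month mice ranged more widely, with -0.27, -0.85 and -0.57, and the 24 month mice had -0.36, -0.70 and -0.58. The means were -0.57 ± 0.01 at 6 months, -0.56 ± 0.29 at 16 months and -0.55 ± 0.17 at 24 months (SD, n = 3 each), with an SE of 0.10 in the fit, or 67.4%, 67.7% and 68.5% of the 1 month signal. The differences of 16 and of 24 months from 6 months were 0.01 and 0.02, and that of 24 from 16 months was 0.02, each with an SE of 0.14 and with mice that overlapped. The number of tested probes with a lower mean ratio than Cirbp was 89 at 6 months, 210 at 16 months and 273 at 24 months. The Cy5 level of Cirbp lay between 9.97 and 10.34, and its Cy3 level averaged 9.53 ± 0.12, 9.65 ± 0.28 and 9.59 ± 0.31 at 6, 16 and 24 months (SD, n = 3 each).

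The ratios of the first Rbm3 probe and of Cirbp parted at 16 months. Rbm3 was chosen for its low at this age, so the gap follows from that choice and is no separate finding. The Rbm3 log2 ratio minus the Cirbp log2 ratio on the same array was -0.06, -0.36 and 0.08 in the 6 month mice. It was -1.20, -0.79 and -0.62 in the 16 month mice, and -0.59, 0.29 and 0.12 in the 24 month mice. In each 16 month mouse the ratio of Rbm3 was the lower, while at 6 and 24 months the sign varied between mice. With median centring Rbm3 was the lower on all 9 arrays, with differences of -0.69 to -0.25 at 6 months, -1.43 to -0.93 at 16 months and -1.12 to -0.21 at 24 months. The ratio of the further Rbm3 probe was above that of Cirbp in all 9 mice, by 0.16 to 0.59. Arrays of an age also differed more for the first Rbm3 probe and the Cirbp probe than for most probes. The SD within ages was 0.25 for this Rbm3 probe and 0.19 for Cirbp, larger than for 93.4% and 87.9% of tested probes (median 0.10). For the further Rbm3 probe it was 0.05, larger than for 13.1%. With 1 array per mouse, differences between mice and between arrays cannot be told apart. Replicate 2 of 16 months had the lowest ratio of that age for all 3 probes.

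The size of the Rbm3 values depended on how the dyes were brought to a common scale. Loess removes a trend of the log ratio with intensity, and for so bright a probe it raised the ratio by 0.27 on 6 month replicate 1 up to 1.96 on 24 month replicate 2. With each array centred on its median instead, Rbm3 stood at -0.91, -1.90 and -1.53 in the 6 month mice. The same setting gave -2.07, -2.47 and -1.99 in the 16 month mice and -2.12, -2.37 and -1.25 in the 24 month mice. The 16 month mice then still lay below every 6 month mouse but overlapped those of 24 months, and the means were -1.45 ± 0.50, -2.18 ± 0.26 and -1.92 ± 0.59 at 6, 16 and 24 months (SD, n = 3 each). The share of all probes without overlap of 16 and 6 months was not counted with median centring. For Cirbp median centring gave -1.04, -1.01 and -1.25 at 6, 16 and 24 months, and for the further Rbm3 probe -0.59, -0.54 and -0.75. The mean ratio of the first Rbm3 probe was lowest at 16 months in each of the 9 fits that left out 1 array, and also with median centring, without background correction and with haemoglobin as a covariate. Rbm3 was chosen for this low on the same arrays, so these fits describe the low and do not test it. With median centring the 24 month mean lay only 0.26 above that of 16 months, with an SE of 0.32. Agilent's processed signals, on which the genes were chosen, gave -0.71, -1.44 and -0.64 at 6, 16 and 24 months.

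**Figure D3:**
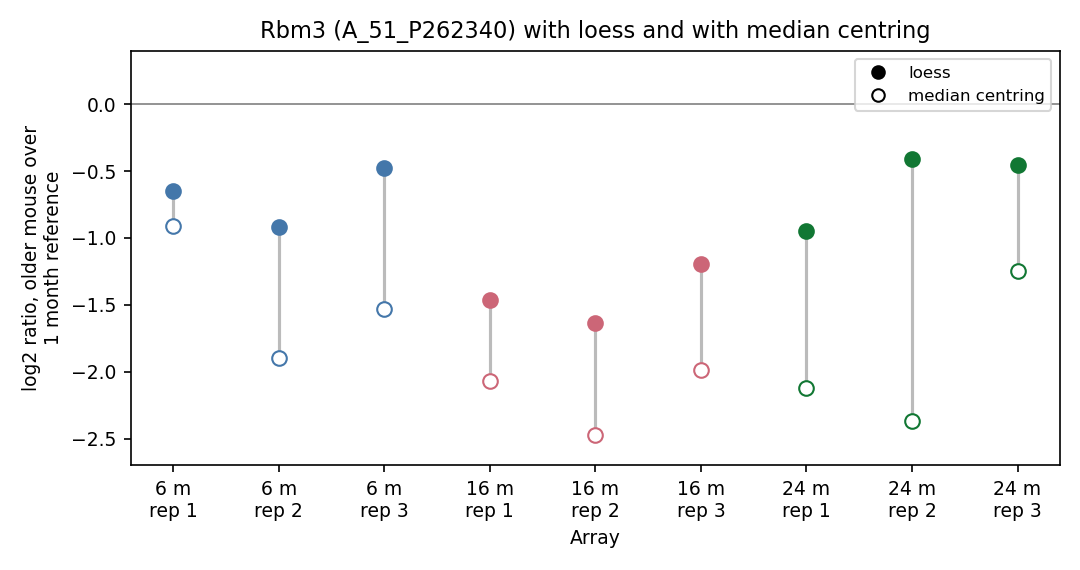
Log2 ratio of the Rbm3 probe A_51_P262340 on each array, with loess (filled) and with median centring of the array (open), joined by a grey line per array. The 2 settings differ by 0.27 on 6 month replicate 1 and by 1.96 on 24 month replicate 2, and under both the 3 arrays of 16 months lie below the 3 of 6 months. With loess the latter held for 7.09% of probes, and with median centring the share was not counted.

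Markers of other cells in the suspension varied between the same mice. The mean log2 ratio of 6 haemoglobin probes was -1.59, -1.60 and -1.02 in the 6 month mice, 1.79, 1.28 and -0.60 in the 16 month mice, and -1.54, 0.42 and 1.30 in the 24 month mice. With that mean as a covariate, the Rbm3 difference of 16 from 6 months was -0.89 and that of 24 from 16 months 0.88. The 9 macrophage and granulocyte markers, all tested, averaged -0.79 to -0.54 at 6 months, -0.63 to 0.88 at 16 months and -0.73 to -0.32 at 24 months. Their highest value, 0.88, was that of 16 month replicate 2, the mouse with the lowest Rbm3 and Cirbp ratios. These markers did not move together. At 24 months S100a8 and S100a9 averaged -2.47 and -3.35, but Lyz1 and Lyz2 averaged 0.87 and 0.63. The others of this list lay between -0.15 and 0.14 at that age. The 9 thymic epithelium markers tested of 10 averaged -0.59 to -0.49, -0.50 to -0.40 and -0.35 to -0.03 at 6, 16 and 24 months. For the 14 thymocyte markers the ranges were 0.17 to 0.41, 0.23 to 0.33 and 0.26 to 0.27, and 0.05 to 0.33, 0.14 to 0.19 and 0.14 to 0.19 for the 11 of them with no saturated spot. The 8 B and plasma cell markers averaged 0.04 to 0.12, 0.36 to 0.75 and 0.22 to 0.65 at the same ages. Over the 9 mice the 5 erythroid markers tested of 7 averaged -0.54 to 0.78, the 6 stromal markers -0.02 to 0.56 and the 5 adipocyte markers -0.08 to 0.46. The part of any of these markers, haemoglobin among them, in the Rbm3 and Cirbp values was not tested.

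The genes whose ratios lay nearest to those of each member were found by the root mean square difference of log2 ratios over the 9 arrays, among 15081 genes with a tested and unsaturated probe. Cirbp had near neighbours. Gpcpd1, a glycerophosphocholine phosphodiesterase gene, lay 0.10 away, with means of -0.52, -0.49 and -0.52 at 6, 16 and 24 months. The small GTPase gene Rab18 and Pdcl3, a phosducin-like cofactor of protein folding, were each 0.12 from Cirbp. Rtp4, a receptor chaperone induced by interferon, was also 0.12 away, and it shared the spread of Cirbp within 16 months, at -0.21, -0.81 and -0.46 in replicates 1, 2 and 3. The RNA-binding gene Rbm18 lay 0.13 away. Further probes of these genes did not all follow, since the other probe of Rab18 averaged 0.27 at 16 months and that of Rbm18 0.09, while those of Gpcpd1 and Pdcl3 stood at -0.44.

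Rbm3, chosen for its low at 16 months, had no gene as close. Anapc10, a subunit of the anaphase-promoting complex, and Cox7b, a subunit of cytochrome c oxidase, were each 0.39 away, the Wnt receptor gene Fzd10 and the thymus-expressed gene Tbata 0.40, and Cmc1, an assembly factor of cytochrome c oxidase, 0.42. Cox7b averaged -0.49 at 6 months, -1.19 at 16 months and -1.06 at 24 months, and Tbata -0.81, -0.88 and -0.49. Anapc10 averaged -0.51, -0.85 and -0.71, and Cmc1 -0.52, -0.79 and -0.64, so these 4 genes had their lowest mean at 16 months, as did Fzd10 (-0.75, -0.92 and -0.87) and as Rbm3 did. The other probes of Anapc10 and Fzd10 averaged 0.05 and -0.02 at 16 months. All these neighbours were picked for ratios near those of Rbm3, so their low at 16 months is no separate finding.

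**Figure D4:**
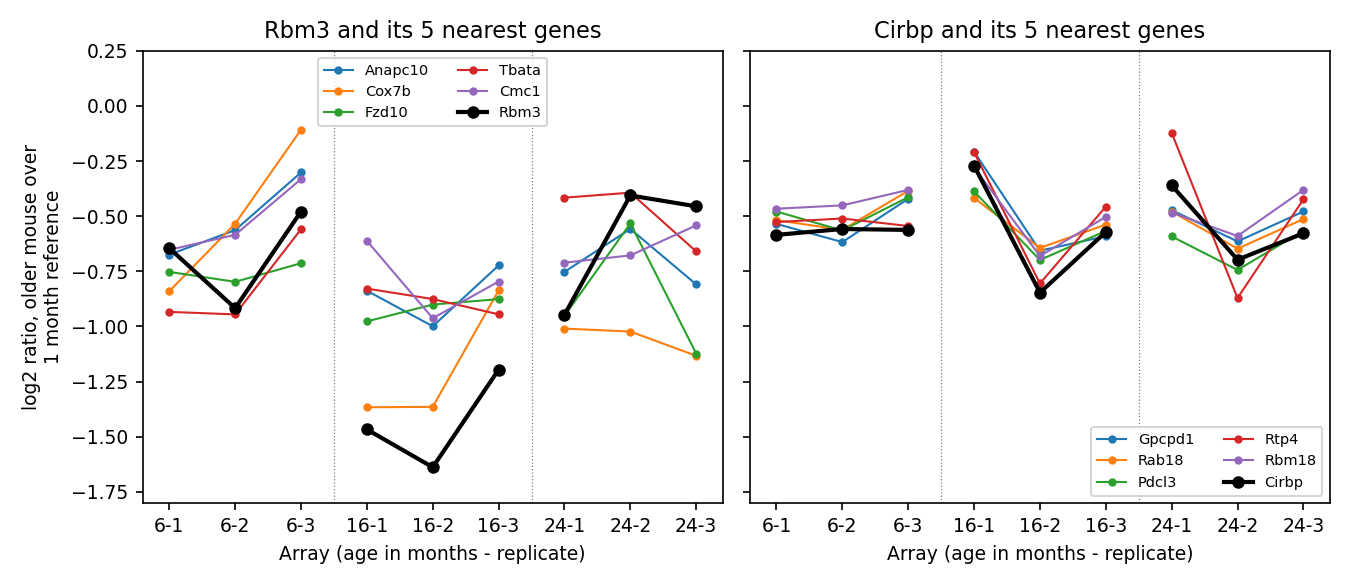
Log2 ratio on each array (age in months and replicate on the horizontal axis) for Rbm3 and for Cirbp in black, each with its 5 nearest genes in colour. The neighbours of Cirbp follow it within 0.10 to 0.13 (root mean square, log2), and those of Rbm3 stay 0.39 to 0.42 away and above it at 16 months.

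The other genes of the cold response and its surroundings were read in 5 lists of 123 genes in all, of which 100 were tested, with 1 probe per gene. Against 1 month 28 of the 100 passed at 6 months, 47 at 16 months and 40 at 24 months, beside 16.6%, 24.4% and 21.5% of all probes. These shares are not like for like. A list gene was read from its brightest probe, while all probes include dim ones and ones without a gene symbol. The share among the brightest probes of all genes was not counted, which also limits the shares beside each list below. In 16 against 6 months, 24 against 6 months and 24 against 16 months 0 passed by limma, and 14, 9 and 13 of the 100 had an unadjusted p under 0.05, beside 8.03%, 8.52% and 4.39% of all probes. No list gene reached the mean of -1.43 of the first Rbm3 probe at 16 months. That probe was chosen for its low at this age, and only 1 of the 37449 tested probes had a lower mean. The further Rbm3 probe stood at -0.17, inside the range of the list genes. All comparisons with 1 month use the same Cy5 material.

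The relatives of Rbm3 named for an RNA-binding motif had members on both sides of 0. Of 30 tested of 41, 3 were higher and 3 lower at 6 months, 7 higher and 6 lower at 16 months, and 3 higher and 5 lower at 24 months. With median centring 4 were higher and 12 lower, 2 and 9, and 5 and 18 at these ages. Over all probes 8.94% were higher and 7.67% lower at 6 months, 13% and 11.4% at 16 months, and 9.92% and 11.5% at 24 months. With median centring 9197 of all 37449 probes were higher and 10431 lower at 6 months. At 16 months these counts were 6883 and 9757, and at 24 months 11718 and 14833. The 16 month median of the list was 0.07, beside -0.01 for all probes and -0.29 for the list with median centring. Rbm18 fell by 0.49 at 16 months (SE 0.07, limma adjusted p = 0.00287), with -0.28, -0.68 and -0.50 in replicates 1, 2 and 3. The other probe of Rbm18 stood at 0.09 and did not pass (limma adjusted p = 0.355). Rbmxl1, a retrocopy of the splicing gene Rbmx, fell by 0.35 (SE 0.09, limma adjusted p = 0.0228), and Rbm7, a component of nuclear RNA decay, by 0.33 (SE 0.07, limma adjusted p = 0.0105). Without 16 month replicate 2, Rbm7 (-0.29) and Rbmxl1 (-0.42) no longer passed (limma adjusted p = 0.0791 and 0.0628). Rbmxl1 stood at -0.20 without 16 month replicate 1 (limma adjusted p = 0.0797). In 16 against 6 months the smallest p in the list belonged to the coactivator genes Rbm39 (-0.24) and Rbm14 (0.25), which did not pass (limma adjusted p = 0.599 for each).

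The hnRNP genes, which package and splice nuclear RNA, had 3 higher and 5 lower of 21 tested at 6 months, 7 and 5 at 16 months, and 5 and 4 at 24 months. With median centring 0 were higher and 14, 10 and 18 lower at 6, 16 and 24 months. Over all probes 8.94% to 13% were higher and 7.67% to 11.5% lower across the ages. With median centring 9197, 6883 and 11718 of all 37449 probes were higher and 10431, 9757 and 14833 lower at 6, 16 and 24 months. The 16 month median of the hnRNP genes was 0.16, and -0.59 with median centring. On 5 of the 21 probes a spot was saturated, and without them 3 were higher and 4 lower at 6 months, 6 and 4 at 16 months, and 4 and 3 at 24 months. Hnrnpl rose by 0.67 (SE 0.12, limma adjusted p = 0.00763) and Ptbp1, a repressor of exon inclusion, by 0.52 (SE 0.08, limma adjusted p = 0.00304), but with median centring they stood at 0.07 and 0.04 and did not pass. Hnrnpl also did not pass without 16 month replicate 2 (0.59, limma adjusted p = 0.0617). Hnrnpa1 fell by 0.63 (SE 0.06, limma adjusted p = 0.00102), with -0.70, -0.63 and -0.55 in the 16 month mice, while its other probe stood at 0.27 (limma adjusted p = 0.0695). Hnrnpab stood at 0.63 at 16 months (SE 0.13, limma adjusted p = 0.0109) on a probe with a saturated spot. In 16 against 6 months the poly(C)-binding gene Pcbp1 (0.21) and Syncrip (-0.98, SE 0.35) had the smallest p and did not pass (limma adjusted p = 0.599 and 0.608). Syncrip ranged from -1.07 to 0.29 among the 16 month mice, and the other probe of Syncrip stood at -0.06, that of Pcbp1 at 0.16.

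Regulators and mRNA targets of the cold-inducible proteins had 9 of 12 genes tested, with 2 higher and 1 lower at 6 months, 2 and 2 at 16 months, and 3 and 3 at 24 months. With median centring 0 were higher and 5, 4 and 8 lower at 6, 16 and 24 months. Over all probes 8.94% to 13% were higher and 7.67% to 11.5% lower across the ages, with median-centred counts as given for the Rbm relatives. The median of this list at 16 months was -0.03, and -0.36 with median centring. Sp1, the factor reported to bind the cold-responsive element, averaged 0.01 at 16 months (SE 0.20), with -0.63, 0.16 and 0.49 in replicates 1, 2 and 3. Among reported mRNA targets of Cirbp, Rpa2, a subunit of the single-strand DNA-binding complex, rose by 0.51 (SE 0.06, limma adjusted p = 0.00162) and stood at 0.14 with median centring, no longer past the threshold. The thioredoxin gene Txn1 fell by 0.46 (SE 0.09, limma adjusted p = 0.00699), with -0.75, -0.31 and -0.33 in the 16 month mice. Elavl1, encoding the mRNA-stabilizing protein HuR, rose by 0.35 (SE 0.04, limma adjusted p = 0.000981), as did its other probe (0.48), but the first turned to -0.26 with median centring. In 16 against 6 months Dyrk1b (0.29, other probe 0.06) and Elavl1 (0.15, other probe 0.15) had the smallest p and did not pass (limma adjusted p = 0.599 for each).

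Of the circadian clock genes 19 of 24 were tested, with 1 higher and 0 lower at 6 months, 3 and 1 at 16 months, and 1 and 3 at 24 months, and a 16 month median of -0.03 that became -0.16 with median centring. That setting gave 3 higher and 7 lower at 6 months, 1 and 7 at 16 months, and 5 and 12 at 24 months. Over all probes 8.94% to 13% were higher and 7.67% to 11.5% lower across the ages, with median-centred counts as given for the Rbm relatives. The repressor gene Cry1 fell by 0.42 at 16 months (SE 0.09, limma adjusted p = 0.0135), with its other probe at 0.10, and did not pass without 16 month replicate 2 (limma adjusted p = 0.0921). Timeless rose by 0.39 (SE 0.12, limma adjusted p = 0.0476), resting on 0.83 in replicate 2, and stood at 0.17 without it (limma adjusted p = 0.229). Its call was lost when any of 8 of the 9 arrays was left out. Clock itself, whose mRNA Cirbp has been reported to bind, fell by 0.26 at 24 months (SE 0.06, limma adjusted p = 0.0143), on the brightest of its 3 probes. At 6 and 16 months it averaged -0.16 and did not pass (limma adjusted p = 0.0893 and 0.0651). Clock was named after its values were seen, and its other probes and its median-centred values are not given here. In 16 against 6 months Per1 (0.12) and the casein kinase gene Csnk1e (-0.31, other probe 0.09) had the smallest p and did not pass (limma adjusted p = 0.701 and 0.703).

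Heat shock genes, which respond to temperature in the direction opposite to Rbm3 and Cirbp in cultured cells, had 23 of 24 members tested. Of these 8 were higher and 3 lower at 6 months, and 9 higher and 5 lower at each of 16 and 24 months. With median centring more were lower than higher at each age, with 2 higher and 10 lower at 6 months, 2 and 7 at 16 months, and 2 and 11 at 24 months. More were also lower than higher over all probes in that setting, with the counts given for the Rbm relatives. With loess 8.94% to 13% of all probes were higher and 7.67% to 11.5% lower across the ages. The 16 month median of the heat shock genes was 0.31, beside -0.01 for all probes, and -0.17 with median centring. The co-chaperone gene Stip1 rose by 0.95 (SE 0.18, limma adjusted p = 0.00828), with 0.46, 1.48 and 0.92 in the 16 month mice. The chaperone gene Hsp90ab1 rose by 0.86 (SE 0.16, limma adjusted p = 0.00729) and Ahsa1, an activator of Hsp90, by 0.66 (SE 0.12, limma adjusted p = 0.00653), each highest in replicate 2. The other probe of Hsp90ab1 stood at 0.66 and did not pass (limma adjusted p = 0.101). With median centring none of these 3 passed (0.54, 0.17 and 0.06), and without 16 month replicate 2 Stip1 and Hsp90ab1 did not (limma adjusted p = 0.0556 and 0.0585). Hsf1, the transcription factor of the response, averaged 0.53, 0.56 and 0.39 at 6, 16 and 24 months on the brighter of its 2 probes. It was named after its values were seen, and its other probe and its median-centred values are not given here. In 16 against 6 months the co-chaperone genes Dnajb1 (-0.39, SE 0.08, other probe -0.31) and Dnajb4 (-0.27, other probe 0.02) had the smallest p and did not pass (limma adjusted p = 0.599 for each).

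**Figure D5:**
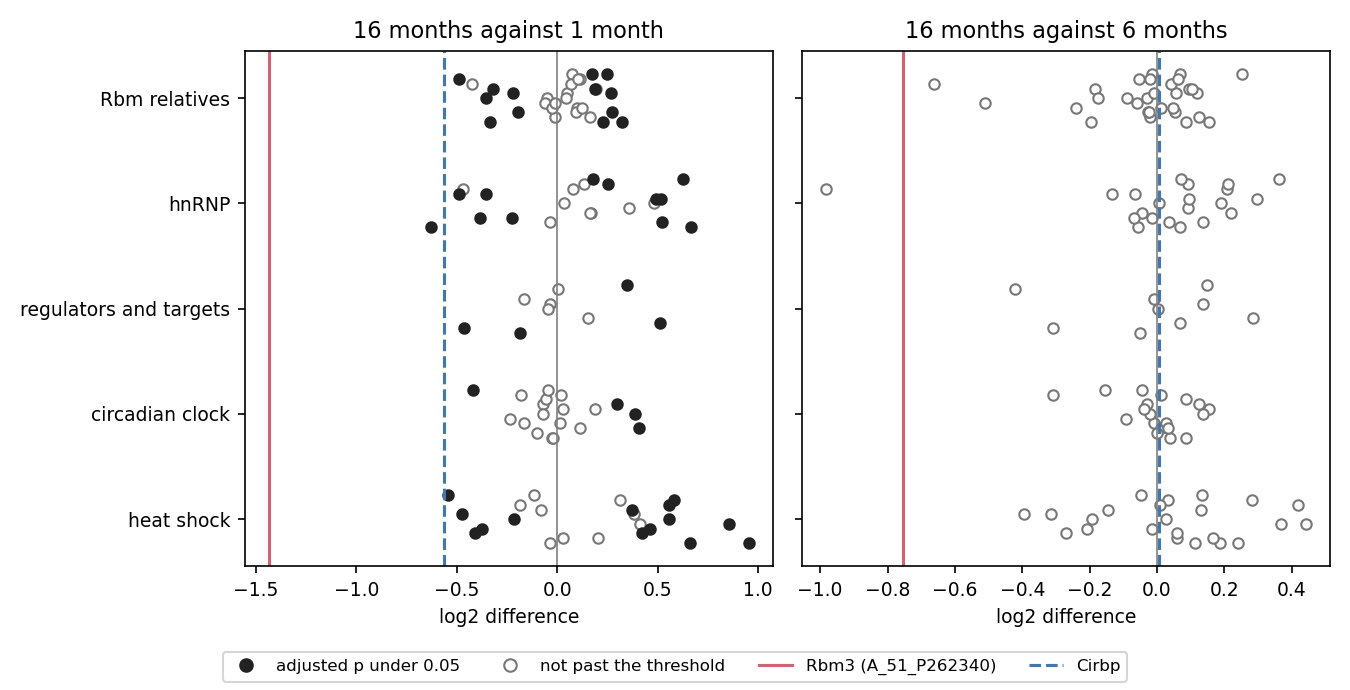
Log2 difference for each tested gene of the 5 lists (rows) in 16 months against 1 month and in 16 months against 6 months, filled where the limma adjusted p was under 0.05 and open otherwise, with lines at the first Rbm3 probe and at Cirbp. Filled points lie on both sides of 0 on the left, and 0 genes passed on the right. The first Rbm3 probe, chosen for its 16 month low, lies at -1.43 below every list gene against 1 month.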

How the data were processed

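The scanner files hold raw and processed intensity values per feature as deposited. The processed intensity values had been background-subtracted and dye-normalized by LOWESS (smooth factor 0.25) by the authors' software, Agilent Feature Extraction, version 7.5.1 per the file headers and 7.1 per the submitters' processing notes. In the value table the authors deposited, each score was found to be a z-score, within its channel, of log10 processed signals, and it was rescaled to log2 as an alternative. The genome build of the probes is not given in the sources used here. The 18 samples are the channels of 9 arrays, and both channels of an array share a scanner file.

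Raw signals (43790 features, 41174 distinct non-control probes) were corrected with normexp (offset 50) and loess-normalized within each array, using limma 3.58.1 (R 4.3.3). Outlier spots (34 to 179 per array) were left out, and repeated spots were averaged. Probes were tested if well above background on all arrays of an age or in Cy5 on all 9 arrays, which left 37449 probes for 15270 genes. A limma fit with a mean per age and empirical Bayes moderation was used, with Benjamini-Hochberg adjustment over all tested probes, two-sided, at 0.05. The fit was tested on simulated data. Both members, the further Rbm3 probe and the lists were chosen with earlier results of these data known. Named list genes were up to 3 with the largest change among those past the threshold in 16 months against 1 month, and the 2 with the smallest p in 16 against 6 months, where none passed. Probes with a saturated spot were left out of this choice. Sp1, Hnrnpab, Clock and Hsf1 were named after their values were seen. A gene that this rule takes is not reported here. A list gene was read from its brightest probe. Promoter windows came from the RefSeq table of GRCm38.p6, which matched Cirbp with 2 windows and Rbm3 with 0. Alternatives were Agilent's processed signals, median centring, no background correction, the authors' scores, a replicate block, haemoglobin as a covariate, no filter on dim probes and each array left out. Tables and figures were made with Python 3.11.15, numpy 2.4.6, pandas 2.3.3 and matplotlib 3.10.9. Other cell type marker lists were read in the same fit.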

Additional observations from a re-analysis of the deposited data

How the results depend on the processing

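Over the alternatives the ratio of the first Rbm3 probe and that of Cirbp stayed below 0 at every age. Median centring moved Rbm3 to -1.45, -2.18 and -1.92 and Cirbp to -1.04, -1.01 and -1.25 at 6, 16 and 24 months against 1 month. The differences of 24 months from 6 months then were -0.47 for Rbm3 and -0.21 for Cirbp, and those of 24 from 16 months 0.26 and -0.23. Without background correction Rbm3 was -0.35 at 24 months. The further Rbm3 probe, an alternative added after the data were seen, gave -0.16, -0.17 and -0.13 against 1 month, -0.012 for 16 from 6 months and 0.041 for 24 from 16 months.

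With 1 array left out at a time, Rbm3 against 1 month ranged from -0.78 to -0.56 at 6 months, -1.55 to -1.33 at 16 months and -0.70 to -0.43 at 24 months. Its differences ranged from -0.87 to -0.65 for 16 from 6 months, -0.04 to 0.25 for 24 from 6 and 0.73 to 1.00 for 24 from 16. Cirbp ranged from -0.57 to -0.56, -0.71 to -0.42 and -0.64 to -0.47 against 1 month at 6, 16 and 24 months. Its differences ranged from -0.14 to 0.15, -0.07 to 0.10 and -0.12 to 0.16 in the same order of comparisons.

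List genes called against 1 month were 28, 47 and 40 at 6, 16 and 24 months. Median centring called 55 at 6 months and 77 at 24 months, and turned Elavl1 to -0.26 at 16 months. Haemoglobin as a covariate left 5 at 6 months. Leaving out 1 array gave 6 to 28, 19 to 50 and 17 to 44, lowest without 6 month replicate 2, 16 month replicate 2 and 24 month replicate 1. The count was 16 without 6 month replicate 1 and 24 without 24 month replicate 2. Between older ages 0 list genes were called by limma in every setting, and 9 to 14 had an unadjusted p under 0.05 with all arrays. Over all probes 6219, 9124 and 8034 were called at 6, 16 and 24 months, and 491 to 6516, 2568 to 9437 and 2348 to 8138 with 1 array left out. Between older ages at most 4 probes passed, in 16 against 6 months without 16 month replicate 3. The counts were 19628, 16640 and 26551 with median centring, 418 at 6 months with haemoglobin and 5226 at 24 months without background correction. Of calls at 16 months 53.2% were higher, 63.4% with processed signals and 41.4% with median centring, and at 24 months 46.2%, or 34.9% without background correction. At 6 months 53.8% were higher, 70.6% with haemoglobin and 43% without background correction. The cause of these moves was not tested, beyond the fewer samples when an array is left out.

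Mice with the same replicate number did not deviate together (correlations from -0.47 to 0.22 over 9 pairs), so the numbers were not taken as pairing. A replicate block cannot move the age means of a balanced design, and with it 3925 probes were called at 6 months. Scan date as a block was not run, because no scan date was found in the headers. The 3 mice per age, the lack of dye swaps and the brightness of the first Rbm3 probe limit what these values can show.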
